A study of Mus musculus with 4 samples.

Results

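The acyl-CoA thioesterase family is described here through 9 genes, Acot1, Acot2, Acot3, Acot4, Acot6, Acot7, Acot8, Acot9 and Acot12. The genes were taken by name: every gene probe whose name in the scanner files, or whose accession, gave one of them was used, older names included. All 9 were on the array, with 12 of the 41174 gene probes and 9 of the 27670 distinct gene names. Acot6 carried its older name, 4632408A20Rik, in the files. Acyl-CoA thioesterases split fatty acyl-CoA and related CoA esters into the free acid and coenzyme A. They thereby act against acyl-CoA synthetases, and the family is known for members in different compartments of the cell that meet different acyl-CoA pools. In the liver, several of the genes are classic targets of the fatty acid receptor PPARA. By textbook location, Acot1, Acot7 and Acot12 were grouped as cytosolic, Acot2 and Acot9 as mitochondrial, and Acot3, Acot4, Acot6 and Acot8 as peroxisomal.

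Liver RNA of C57BL/6J mice, a common inbred strain, was measured on 4 two-colour Agilent arrays. The conditions were maternal liver after food deprivation (FD), maternal control liver, fetal liver after FD and fetal control liver. All animals had this strain in common, and the labels describe housing with chow and water freely available. Each array carried FD RNA in one dye and control RNA of the same stage in the other: array 1 of each comparison had FD in Cy5 and control in Cy3, and array 2 had FD in Cy3 and control in Cy5. Per the series' design text, RNA of 5 to 10 animals was pooled per condition and dye-swapped, so the arrays of a comparison were counted as 1 pool per condition. The labels number pooled samples 1 and 2 but do not state whether they are the same RNA. With the arrays counted as 1 pool per condition there is no replicate to test against, and p-values are absent throughout. The sources used here do not give how long food was withheld, the day of gestation or the sex of the fetuses.

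Each gene was read by a probe of 60 bases. For the members with the largest changes, the first 30 bases of the probe are shown, because close relatives can share sequence and the values below belong to these probes. The probe of Acot1 lay at chr12:82013539-82013598, that of Acot2 at chr12:81989158-81989217, that of Acot12 at chr13:88859346-88859405 and that of Acot3 at chr12:82054675-82054734, all on the + strand of mouse build mm7 as given in the files. Sequences run 5′ to 3′.
Acot1 probe: tatcaaaatagtgctgattcaagggctggg
Acot2 probe: ggggaaacctcatatatattatcacaatgt
Acot12 probe: acatagacagtatggactccagtttgcagg
Acot3 probe: tggatcttctaaacaatcctttggaaggac
Among the 17 probes of 13 Acot genes, the longest run that any pair of probes shared was 10 bases, and the Acot1 and Acot2 probes shared a run of 6 bases. Whether a probe also binds the transcript of a relative was not tested, since transcript sequences were not used here.

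By array and dye, 53.2% to 69.7% of gene spots stood well above background, and none was saturated. A gene was measured when its probe was well above background in the FD channel or the control channel on both arrays of a comparison. To be called, a gene had to change at least 2-fold on average and at least 1.5-fold, the same way, on every array of the comparison. "Rose" and "fell" are used only for called genes, values are log2 ratios of FD over control on array 1 and array 2 in that order, and the error after ± is the array SE of the mean, from the disagreement of the arrays among the 1000 genes of nearest brightness. It covers technical error only. All 8 hepatocyte markers on the array were well above background in every condition. Their log2 ratios had a median of 0.29 in the mother (range -1.83 to 0.90), with 1 called lower. In the fetus their median was 0.25 (range -0.95 to 1.03), with 1 called higher. The 8 erythroid markers, of which blood-forming fetal liver holds many, summed to net intensities of 5480 to 24557 in maternal FD liver and 6415 to 23724 in maternal control liver, against 54751 to 273509 in fetal FD liver and 64838 to 313490 in fetal control liver. The log2 ratios of all 8 erythroid markers were below 0 in the fetus (median -0.27, range -0.58 to -0.06), and none was called. The 9 macrophage markers summed to 7374 to 26803 in maternal FD liver and 10664 to 42140 in maternal control liver, with 2 called lower (Adgre1 and Aif1) and a median log2 ratio of -0.56, against a median of -0.05 in the fetus. Of 8 adipocyte markers, Adipoq, Lep, Plin1, Cfd, Retn and Ucp1 were not well above background in any condition. The other two were measured: the carbonic anhydrase gene Car3 fell in the mother (mean log2 ratio of -3.85) and in the fetus (-2.07), and Fabp4 was not called (0.75 in the mother and 0.31 in the fetus). The 8 markers summed to 1994 to 11097 in maternal FD liver and 25446 to 73037 in maternal control liver, and to 5188 to 18212 in fetal FD liver and 4487 to 18525 in fetal control liver. Only Car3 and Fabp4 among them were well above background, so these sums follow those genes and not adipocyte markers as a group. The part of such shifts in the results below was not tested, and in whole tissue fewer cells of a type and less RNA per cell cannot be told apart.

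In the maternal liver, 3 of the 8 measured family genes rose after FD and none fell, against a background of 1.57% of 15669 measured genes called higher and 1.93% called lower. Acot1 rose 14.0-fold, Acot2 rose 5.21-fold and Acot12 rose 2.01-fold. The rises were in cytosolic (Acot1 and Acot12, of 3) and mitochondrial (Acot2, of 2) members, while none of the 3 measured peroxisomal members was called at this limit. At a 1.5-fold limit the peroxisomal Acot8 was called as well, which made 4 members. The median log2 ratio of the 8 genes was 0.68, and that of all measured genes was -0.01.

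Among the cytosolic members, Acot1 encodes the long-chain acyl-CoA thioesterase of the cytosol. Its log2 ratios in the maternal liver were 3.85 and 3.78, with a mean of 3.81 ± 0.14, which ranked 4 from the top of 15669 genes. Its normalised log2 levels were 15.59 and 16.04 in maternal FD liver, against 11.74 and 12.26 in maternal control liver, so that the conditions did not overlap. Here and below, overlap or its absence describes only 2 readings per condition, counted as 1 pool. The share of all genes without overlap is not given. Acot12, which encodes a cytosolic acetyl-CoA hydrolase, had log2 ratios of 0.97 and 1.05 (mean 1.01 ± 0.13). Its log2 levels were 12.14 and 12.10 in maternal FD liver and 11.17 and 11.05 in maternal control liver, also without overlap. The mean of Acot12 lay just above the 2-fold limit, and array 1 alone (0.97) or median centring in place of loess (0.96) put it below that limit. Acot7, which encodes an acyl-CoA hydrolase known for its high level in brain, had log2 ratios of opposite sign on the arrays, 0.18 and -0.33 (mean -0.08 ± 0.13). Its log2 levels overlapped, with 9.92 and 9.58 in maternal FD liver and 9.75 and 9.92 in maternal control liver.

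Of the mitochondrial members, Acot2 encodes the long-chain thioesterase of the mitochondrial matrix. Its log2 ratios were 2.46 and 2.31 (mean 2.38 ± 0.11), rank 26 from the top. The log2 levels of Acot2 were 10.71 and 10.66 in maternal FD liver, against 8.26 and 8.35 in maternal control liver with no overlap. Acot9, a mitochondrial member of the other structural branch of the family, had log2 ratios of 0.28 and -0.12 (mean 0.08 ± 0.12). A second Acot9 probe was not well above background in any condition.

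Of the peroxisomal members, Acot8, a peroxisomal thioesterase of broad specificity that also acts on bile acid CoA esters, had log2 ratios of 0.79 and 0.81 (mean 0.80 ± 0.14, 1.74-fold), short of the 2-fold limit although the arrays differed little. Acot4, a peroxisomal enzyme that in the mouse hydrolyses succinyl-CoA and glutaryl-CoA, had ratios of 0.54 and 0.57 on its brighter probe (mean 0.56 ± 0.12) and of 0.22 and 0.63 on the other. Acot3, a peroxisomal long-chain thioesterase, had ratios of -0.21 and 0.02 (mean -0.09 ± 0.11), and its log2 levels were 10.52 and 10.60 in maternal FD liver and 10.73 and 10.58 in maternal control liver, which overlap. Neither probe of Acot6, a peroxisomal member known in the mouse for phytanoyl-CoA and pristanoyl-CoA, was well above background on both arrays in either maternal condition.

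**Figure D1:**
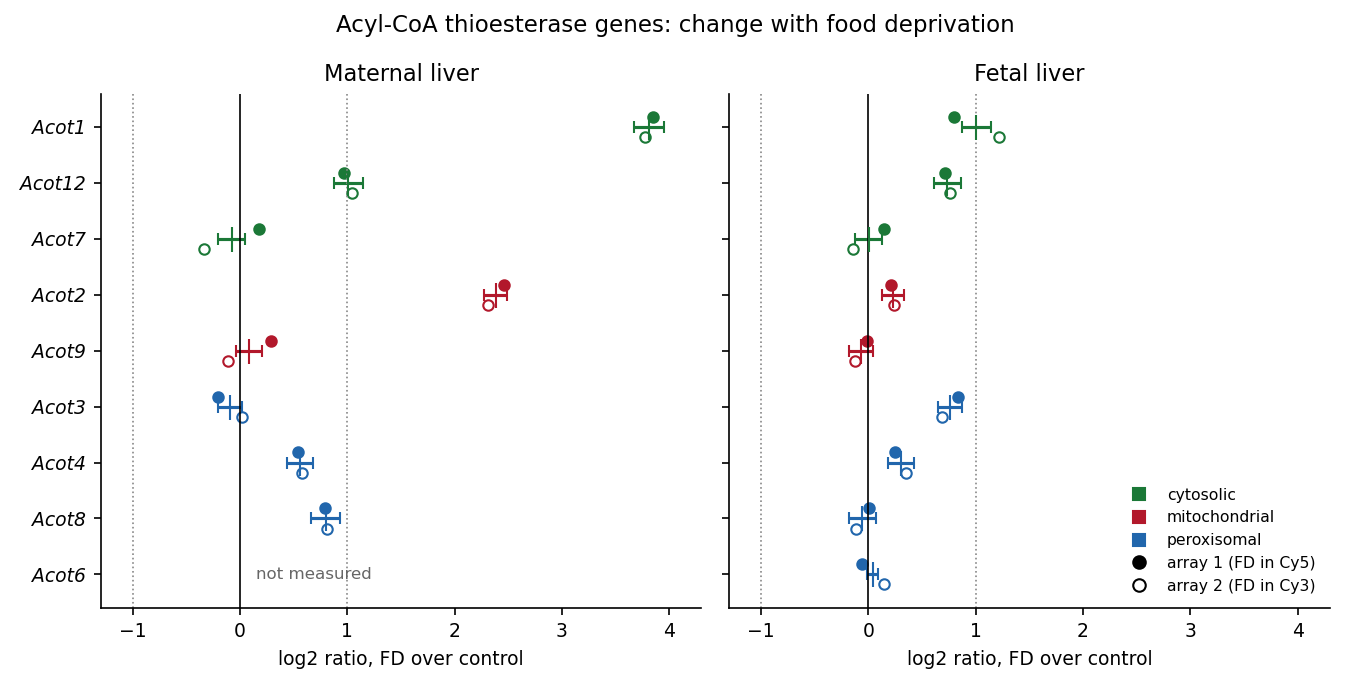
Log2 ratio of FD over control (horizontal axis) for each of the 9 genes, in maternal liver (left) and fetal liver (right), coloured by compartment. Filled points are array 1, open points array 2, and vertical ticks with bars the mean with its array SE. Dotted lines mark 2-fold. In the mother Acot1 (mean 3.81) and Acot2 (mean 2.38) stand far to the right, and in the fetus Acot1, Acot3 and Acot12 lie between 0.69 and 1.21 on every array.

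In the fetal liver, all 9 members were measured, and 1 was called: Acot1 rose 2.01-fold. None fell, against a background of 0.481% of 17468 measured genes called higher and 0.275% called lower. The cytosolic Acot12 and the peroxisomal Acot3 changed next most and missed the 2-fold limit. The median log2 ratio of the members was 0.23, and that of all measured genes was 0.00.

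Acot1 had log2 ratios of 0.80 and 1.21 in the fetus (mean 1.01 ± 0.13), and ranked 84 of 17468 from the top. Its log2 levels were 11.90 and 12.13 in fetal FD liver, against 11.10 and 10.92 in fetal control liver. The conditions did not overlap, but array 1 alone stayed below 2-fold, so the call rests on array 2. Acot3 had ratios of 0.83 and 0.69 (mean 0.76 ± 0.11, 1.69-fold). The levels of Acot3 were 7.78 and 7.61 in fetal FD liver and 6.95 and 6.92 in fetal control liver, with no overlap. This probe was dim in the fetus, and its ratio moved with the processing. The scanner software's own log ratio, which differs in both background and dye correction, gave a mean log2 ratio of 1.70, and the authors' deposited table gave 1.69, which would pass as a call. Without background correction the mean was 0.94, and with a normexp offset of 16 it was 0.998, both below the limit. Acot12 had ratios of 0.71 and 0.76 (mean 0.74 ± 0.12, 1.67-fold), with levels of 9.96 and 10.28 in fetal FD liver and 9.25 and 9.52 in fetal control liver.

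The other members stayed closer to 0 in the fetus. Acot4 had ratios of 0.25 and 0.35 on its brighter probe and 0.29 and 0.33 on the other, so that its probes moved alike. Acot2 had ratios of 0.21 and 0.24 (mean 0.23 ± 0.10). Its probe was dim in the fetus, and its ratio moved with the processing. The Acot2 mean was 0.55 with the scanner software's own log ratio and 0.56 with the authors' deposited table. Acot6 was dim, with ratios of -0.06 and 0.14 on the probe that was measured (mean 0.04), against a mean of 0.70 with the scanner software's own log ratio and with the authors' deposited table. Acot7 (0.14 and -0.14), Acot8 (0.00 and -0.12) and Acot9 (-0.01 and -0.13) had means between -0.07 and 0.00.

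The maternal minus fetal difference asked whether the response to FD differed between mother and fetus, array by array at equal dye. Of 8 members measured in both, 2 were called higher in the mother, Acot1 and Acot2, and none was called lower, against a background of 1.25% of 15136 genes called higher and 1.8% called lower. For Acot1 the log2 difference was 3.05 and 2.56 (mean 2.81 ± 0.09), rank 11 from the top. For Acot2 it was 2.24 and 2.07 (mean 2.16 ± 0.10), rank 23. These are differences between ratios of pools, without a test.

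Acot3 differed in the opposite direction, with -1.04 and -0.67 (mean -0.85 ± 0.09), short of the limit. It was called lower with no background correction (-1.02), with a normexp offset of 16 (-1.10), with the scanner software's own log ratio (-1.78) and with the authors' deposited table (-1.77). Acot8 differed by 0.79 and 0.92 (mean 0.86 ± 0.08), also short of the limit, and was called higher at a 1.5-fold limit. The difference was small for Acot12 (0.26 and 0.29), Acot4 (0.29 and 0.22), Acot9 (mean 0.16) and Acot7 (mean -0.08). By compartment, 1 of 3 cytosolic, 1 of 2 mitochondrial and 0 of 3 peroxisomal members were called, so no compartment moved as a whole, and the peroxisomal members Acot3 and Acot8 differed in opposite directions.

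**Figure D2:**
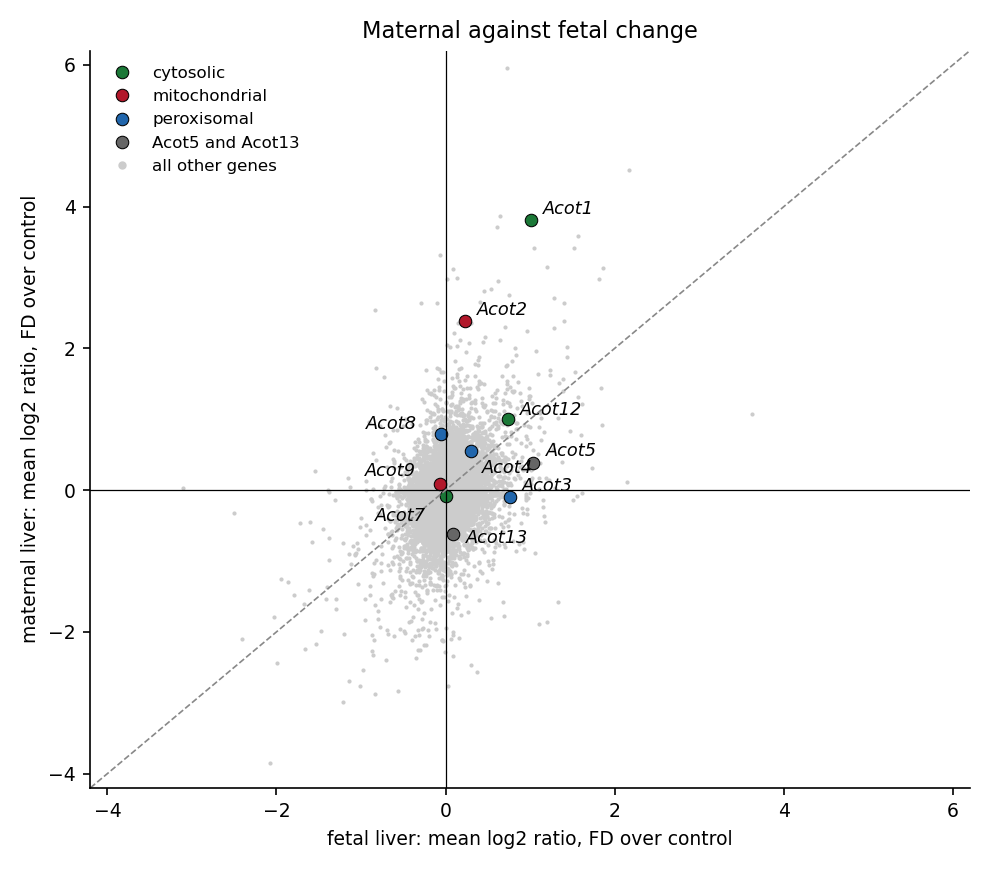
Mean log2 ratio of FD over control in maternal liver (vertical axis) against fetal liver (horizontal axis) for genes measured in both. Grey points are all other genes, coloured points the Acot genes by compartment, and the dashed line marks equal change. Acot1 and Acot2 lie far above the line, Acot12 lies slightly above it (1.01 in the mother and 0.74 in the fetus), and Acot3 and Acot13 lie below it. The maternal value of Acot5 is a lower bound, so its side of the line is not set.

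Levels per liver were then compared between control mothers and control fetuses, at equal dye after loess and Aquantile normalisation. Mother and fetus were hybridised on different arrays, so that array and stage cannot be told apart, and the erythroid markers given above were higher in the fetal livers in every channel. Acot3 was 13.2-fold higher in maternal than in fetal control liver (log2 differences of 3.78 and 3.66), the largest of the 8 members measured in both stages under this scaling. Acot4 was 6.06-fold higher on its brighter probe (2.66 and 2.54) and 4.98-fold higher on the other. Acot12 was 3.31-fold, Acot2 2.45-fold, Acot1 1.98-fold, Acot8 1.74-fold and Acot7 1.39-fold higher in the mother. Acot9 was 1.52-fold higher in the fetus (maternal minus fetal log2 differences of -0.76 and -0.45). The size of the difference depends on the scaling: with the processed signals the log2 difference was 5.62 for Acot3, 3.26 for Acot4, 2.47 for Acot2, 2.21 for Acot12 and 1.66 for Acot1, all in the same direction, so that Acot2 and Acot12 changed places.

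The order of the 4 conditions differed between members. For Acot1 it ran from maternal FD liver downwards to maternal control liver and fetal FD liver, which overlapped, and then to fetal control liver. For Acot2 the order was maternal FD, maternal control, fetal FD and fetal control liver, and its fetal levels were 7.29 and 7.18 after FD against 7.08 and 6.94 in controls. For Acot3 the maternal conditions overlapped at the top and fetal FD liver lay above fetal control liver. Acot4 (11.58 and 11.48 in maternal FD liver, 11.04 and 10.90 in maternal control liver, 8.71 or less in fetal liver) and Acot12 kept all 4 conditions apart. Acot8 had 11.52 and 11.84 in maternal FD liver and 10.73 and 11.03 in maternal control liver, while its fetal levels overlapped at 10.13 and 9.91 after FD against 10.13 and 10.03 in controls. For Acot7 and Acot9 the FD and control levels overlapped within each stage, Acot9 with 8.40 and 8.29 in maternal FD liver, 8.12 and 8.41 in maternal control liver, 8.86 and 8.73 in fetal FD liver and 8.88 and 8.86 in fetal control liver.

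**Figure D3:**
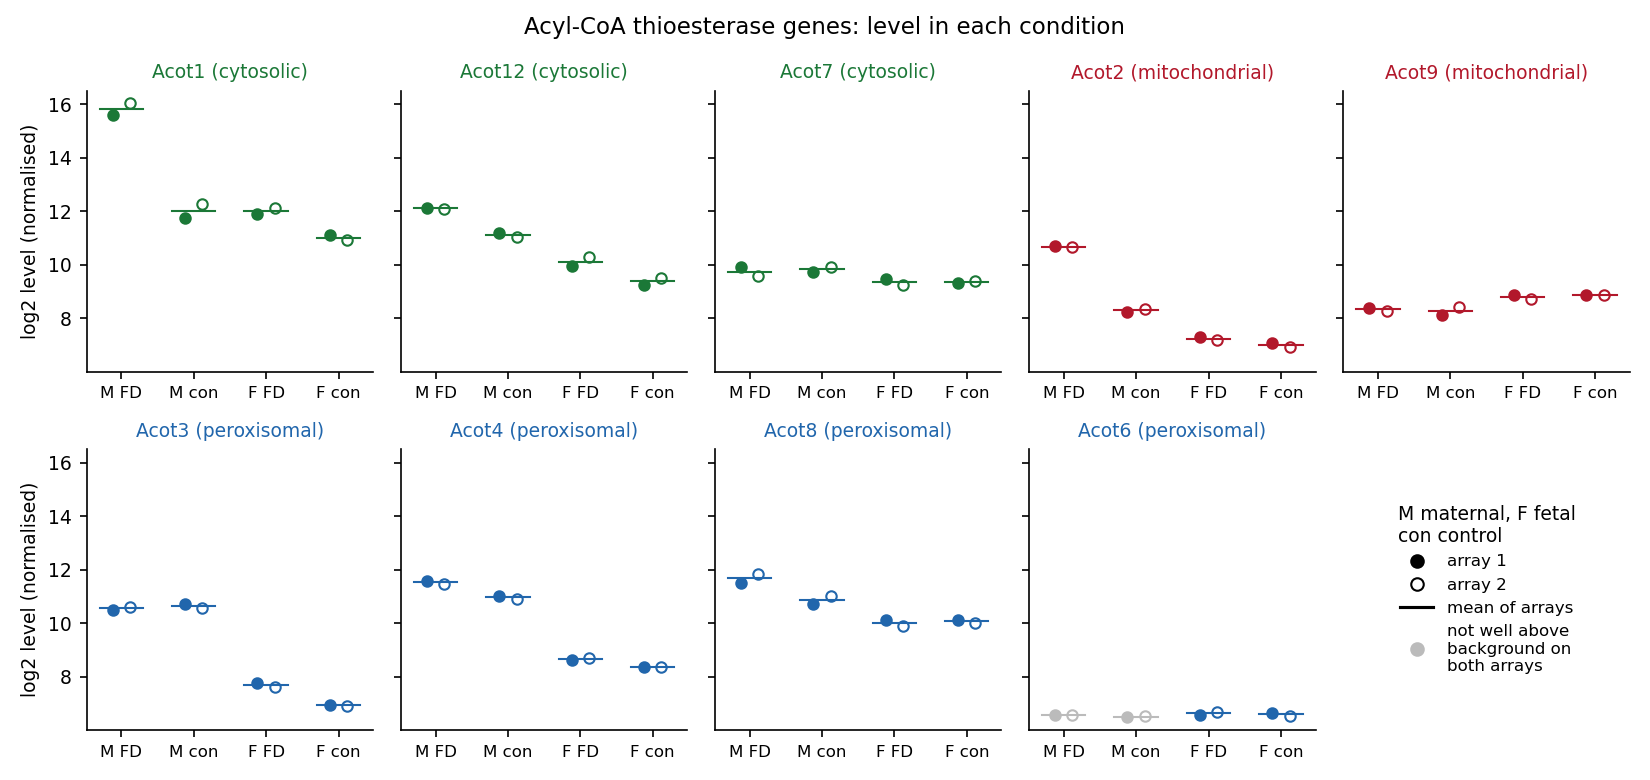
Normalised log2 level of each gene's probe (vertical axis) in maternal FD, maternal control, fetal FD and fetal control liver. Filled points are array 1, open points array 2, and lines the mean of the arrays. Grey marks a condition that was not well above background on both arrays. Acot3 lies near 10.6 in both maternal conditions and below 8 in the fetus, whereas Acot1 is set apart by maternal FD liver (15.59 and 16.04).

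Acot1 to Acot6 are close relatives that lie side by side on mouse chromosome 12, and the probes of the cluster spanned 116.787 kb from the start of the Acot2 probe. The values differed along the cluster. Acot2 and Acot1, with probe starts 24.381 kb apart, rose in the mother by mean log2 ratios of 2.38 and 3.81. The next probes, of Acot4 at 50.091 kb and Acot3 at 65.517 kb, had maternal means of 0.42 (0.56 on the other Acot4 probe) and -0.09. In the fetus the means along the cluster were 0.23 for Acot2, 1.01 for Acot1, 0.31 for that Acot4 probe, 0.76 for Acot3, 1.03 for Acot5 and 0.04 for Acot6. With this processing the fetal values were higher at Acot1, Acot3 and Acot5 than at Acot2, Acot4 and Acot6. The probes of Acot2, Acot3 and Acot6 were dim in the fetus, and their ratios moved with the processing. With the scanner software's own log ratio the fetal means were 0.55 for Acot2, 0.39 for Acot4 and 0.70 for Acot6. Those of Acot1 and Acot3 were then 1.03 and 1.70. The maternal values were high at Acot2 and Acot1 and lower at Acot4 and Acot3. The maternal value of Acot5 (0.39) is a lower bound, because its control level was not well above background, and Acot6 was not measured in the mother.

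**Figure D4:**
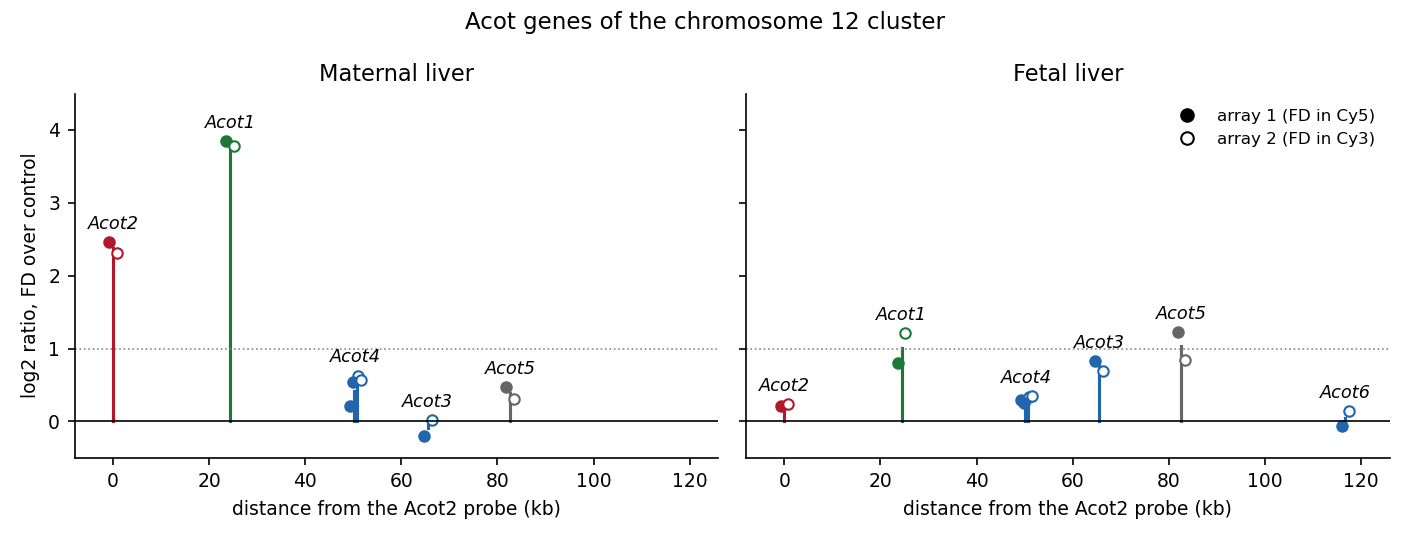
Log2 ratio of FD over control (vertical axis) against distance from the Acot2 probe (horizontal axis, kb) for the probes of the chromosome 12 cluster measured in maternal liver (left) and fetal liver (right). Filled points are array 1, open points array 2, bars reach to their mean, and the dotted line marks 2-fold. The called changes stand at Acot2 and Acot1 in the mother and at Acot1 and Acot5 in the fetus, where Acot3 missed the limit. The maternal Acot5 points are a lower bound.

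The upstream sequences of these genes were read from RefSeq (GRCm38.p6), which held 8 of the 9 members; Acot6 had no entry. The 250 bases before the first listed start are printed for Acot1, Acot2 and Acot12, which rose in the mother, for Acot3, with the lowest maternal minus fetal difference of the members, and for Acot4, which holds a direct repeat. All are on the + strand: Acot1 at chr12:84009252-84009501, Acot2 at chr12:83987611-83987860, Acot12 at chr13:91741271-91741520, Acot3 at chr12:84051894-84052143 and Acot4 at chr12:84038129-84038378. Capitals mark matches on either strand to AGGTCA, which is only a half-site of the elements that PPARA and other nuclear receptors bind. They also mark, on either strand, the CCAAT box (letters CCAAT), the GC box (letters GGGCGG) and the TATA box (letters TATAAA). The direct repeat AGGTCANAGGTCA, which contains AGGTCA, is marked on either strand where it has at most 2 mismatches.
Acot1 upstream: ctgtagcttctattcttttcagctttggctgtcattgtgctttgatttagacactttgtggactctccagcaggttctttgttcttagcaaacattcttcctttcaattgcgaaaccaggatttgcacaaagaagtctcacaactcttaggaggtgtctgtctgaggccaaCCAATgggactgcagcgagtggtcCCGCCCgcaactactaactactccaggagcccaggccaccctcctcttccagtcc
Acot2 upstream: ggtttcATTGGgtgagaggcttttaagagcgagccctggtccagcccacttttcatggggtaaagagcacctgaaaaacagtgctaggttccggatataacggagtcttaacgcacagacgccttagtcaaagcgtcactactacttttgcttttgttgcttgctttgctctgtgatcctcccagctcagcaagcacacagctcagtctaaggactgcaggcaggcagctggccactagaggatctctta
Acot12 upstream: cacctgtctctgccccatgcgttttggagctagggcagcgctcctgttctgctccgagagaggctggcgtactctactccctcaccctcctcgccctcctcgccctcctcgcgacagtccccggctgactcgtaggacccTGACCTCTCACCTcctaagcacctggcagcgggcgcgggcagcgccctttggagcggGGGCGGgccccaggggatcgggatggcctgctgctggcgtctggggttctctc
Acot3 upstream: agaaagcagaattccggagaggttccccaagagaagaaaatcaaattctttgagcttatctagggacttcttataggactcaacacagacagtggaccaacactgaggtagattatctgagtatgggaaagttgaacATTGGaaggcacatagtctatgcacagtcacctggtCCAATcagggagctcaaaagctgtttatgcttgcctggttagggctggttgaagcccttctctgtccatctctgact
Acot4 upstream: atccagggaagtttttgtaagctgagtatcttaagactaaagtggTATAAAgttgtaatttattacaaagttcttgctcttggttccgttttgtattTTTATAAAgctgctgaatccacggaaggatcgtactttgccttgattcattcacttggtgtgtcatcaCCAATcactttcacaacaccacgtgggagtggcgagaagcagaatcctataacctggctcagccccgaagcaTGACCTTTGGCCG
AGGTCA occurred upstream of Acot12 (position -110 from the start), Acot4 (position -13) and Acot5 (position -224), that is in 3 of 11 Acot genes with a sequence, and in 14.0% of 32851 promoters of the same length. The direct repeat occurred with 1 mismatch upstream of Acot12 and with 2 mismatches upstream of Acot4, against 0.484% of all promoters with at most 1 mismatch and 3.24% with at most 2. The window of Acot1 and that of Acot2 held neither AGGTCA nor the repeat. The CCAAT box was in 33.8% of all promoters and 8 of the 11 Acot genes, the GC box in 32.7% and 5, and the TATA box in 12.4% and 3, counting the first listed start of each Acot gene. Acot11 also held the GC box at its second start. A match is a description of letters, and sequence outside the window was not searched.

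Of 13 further genes with thioesterase activity or kinship, 10 were measured in each stage. In the mother none rose and 1 fell, Fasn, the fatty acid synthase whose thioesterase domain releases the finished fatty acid (-1.68 and -1.88). In the fetus Acot5 rose and Fasn fell (-1.83 and -2.23). Acot5, a peroxisomal medium-chain thioesterase, had ratios of 1.23 and 0.84 in the fetus (mean 1.03 ± 0.07, 2.05-fold), with log2 levels of 8.06 and 7.63 in fetal FD liver against 6.83 and 6.79 in fetal control liver. In the mother, Acot5 was not well above background in control liver on either array, and the maternal FD level was at least 1.31-fold higher. Acot13, formerly Them2, a thioesterase associated with mitochondria, had -0.71 and -0.53 in the mother (mean -0.62) and -0.05 and 0.23 in the fetus, and the maternal minus fetal differences of -0.66 and -0.77 did not reach the limit. Its log2 levels were 13.03 and 12.94 in maternal FD liver and 13.74 and 13.47 in maternal control liver.

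No other measured gene of this list was called. Acot11 had a mean of -0.42 in the mother and -0.15 in the fetus, and the mitochondrial Acot10 had 0.05 in the mother and 0.04 in the fetus. Baat, which joins bile acids to amino acids and is related in sequence to Acot1, had -0.04 in the mother and 0.02 in the fetus. Them4 had 0.24 in the mother and 0.33 in the fetus, and the lysosomal Ppt1 had -0.19 in the mother and 0.20 in the fetus. Ppt2 had -0.01 in the mother and 0.16 in the fetus, and Hibch of valine breakdown had -0.12 in the mother and 0.25 in the fetus. Them5, Them6 and Olah were not measured in either stage. The median of the list was -0.08 in the mother and 0.13 in the fetus.

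No gene among the acyl-CoA synthetases, which make the substrates of the family, was called higher in either stage. In the mother 8 of 14 measured genes lay above 0, and the long-chain synthetase gene Acsl1 (1.01 and 0.93, 1.96-fold) and the very long-chain synthetase gene Slc27a2 (0.99 and 0.80, 1.87-fold) came close to the 2-fold limit. In the mother 3 of the 14 fell, Acss2 (-1.44 and -1.37), which activates acetate in the cytosol, Acsm1 (-1.36 and -1.33) and Acsm5 (-1.24 and -1.22), medium-chain synthetases. In the fetus 1 of 15 fell, Acss2 (-1.57 and -1.65). Of 14 genes of coenzyme A synthesis, transport and breakdown, 1 rose in the mother, the pantetheinase gene Vnn1 (1.84 and 1.55), and none was called in the fetus. In the carnitine shuttle, which carries acyl groups into mitochondria, 3 of 7 rose in the mother and none of 8 was called in the fetus. The risen genes were the carnitine transporter Slc22a5 (1.95 and 1.48), the carnitine palmitoyltransferase Cpt1a (1.48 and 1.16) and the carnitine acetyltransferase Crat (1.22 and 1.07). Of the 8 shuttle genes in the fetus, 7 lay above 0. Fetal Cpt1a (1.20 and 0.78, 1.98-fold) was just short of the 2-fold limit, and Cpt1b had 0.79 and 0.88 (1.79-fold).

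In mitochondrial beta-oxidation, 2 of 17 genes rose in the mother, Etfdh (1.29 and 0.95), which passes electrons from the acyl-CoA dehydrogenases to ubiquinone, and Hsd17b10 (0.94 and 1.31), and none of 16 was called in the fetus. In peroxisomal beta-oxidation and import, 6 of 23 rose and 1 fell in the mother, while 1 of 23 rose in the fetus. The largest maternal rises were those of the bifunctional enzyme gene Ehhadh (3.38 and 2.59), the peroxisome division gene Pex11a (2.09 and 2.23) and the thiolase gene Acaa1b (1.95 and 1.69). The gene that fell, named after its value was seen, was Pecr (-1.37 and -1.10), a peroxisomal enoyl-CoA reductase. The fetal rise was that of Phyh (1.17 and 1.27), the phytanoyl-CoA hydroxylase. At the same 2-fold limit, none of the 3 measured peroxisomal Acot members was called in the mother, where Acot8 changed 1.74-fold. So few members do not allow a contrast with this list.

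Among other classic PPARA targets, 9 of 13 rose in the mother and 6 of 15 in the fetus, and none fell. In the mother the largest were Cidec (6.03 and 5.88), a lipid droplet protein, Cyp4a14 (4.76 and 4.26), a fatty acid omega-hydroxylase, the pyruvate dehydrogenase kinase gene Pdk4 (3.63 and 3.53) and Fgf21 (2.58 and 2.71), a liver hormone of fasting. In the fetus they were Cyp4a14 (2.17 and 2.16), the lipid droplet gene Plin5 (1.45 and 1.86), the lipase inhibitor gene Angptl4 (1.72 and 1.51) and Apoa5 (1.51 and 1.62). The median of the list was 1.84 in the mother and 0.39 in the fetus. Ppara itself was not called in the mother (0.31 and -0.03) or in the fetus (0.39 and 0.19). Of 13 measured regulators, 1 was called in the mother, the lipogenic factor gene Srebf1, which fell (-2.71 and -2.67). In the fetus Srebf1 also fell (-1.16 and -1.12), and the coactivator gene Ppargc1b rose (0.91 and 1.14).

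**Figure D5:**
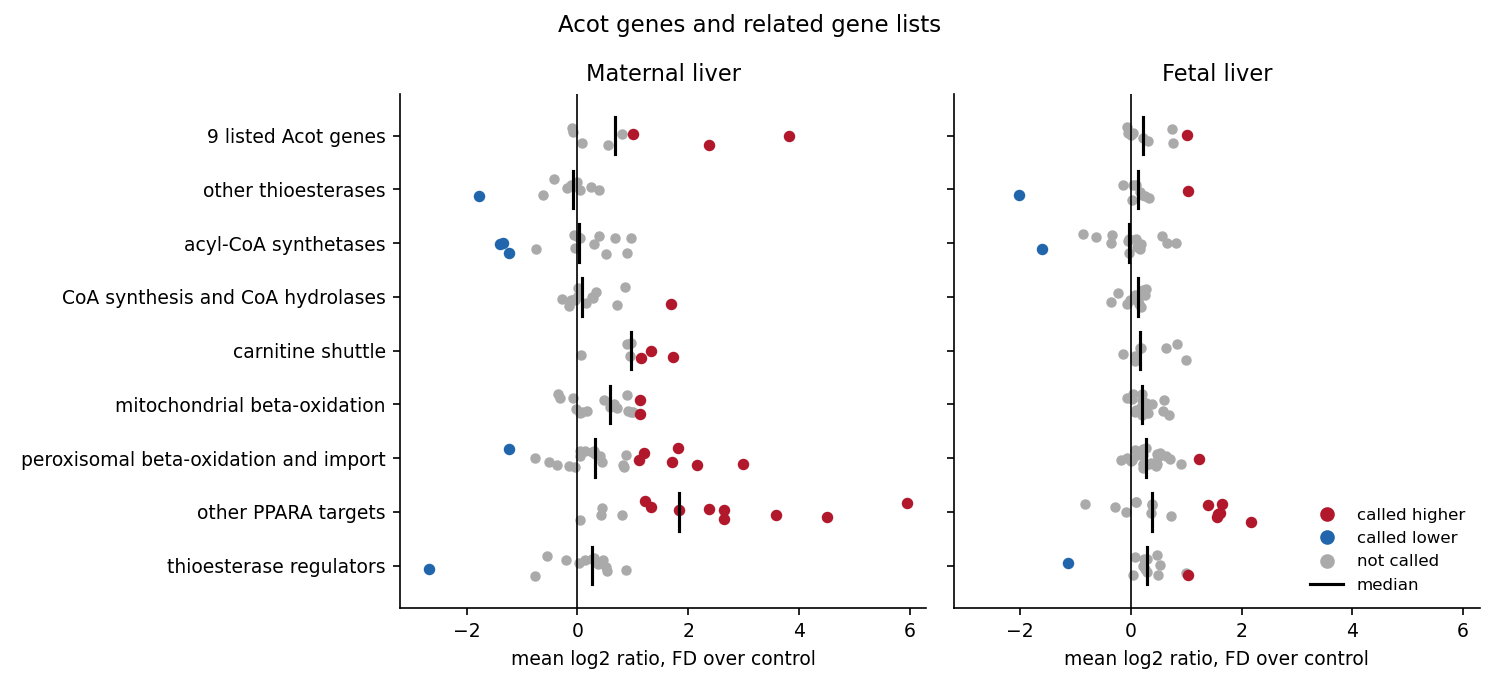
Mean log2 ratio of FD over control (horizontal axis) for the genes of each list in maternal liver (left) and fetal liver (right). Each point is a gene, red if called higher, blue if called lower and grey if not called, and black bars are medians. In the mother the medians farthest to the right of 0 are those of other PPARA targets (1.84), the carnitine shuttle (0.96), the Acot genes (0.68), mitochondrial beta-oxidation (0.58) and peroxisomal beta-oxidation (0.32), while 2 of the 8 Acot points lie left of it (Acot3 and Acot7).

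The genes most like Acot1 and Acot2 were sought among 12765 genes by Euclidean distance over the log2 ratios of the 4 arrays. The values shared the arrays and the dye orientation, and the distance is a description. Nearest to Acot1 were the apolipoprotein gene Apoa4 (distance 0.59), Pdk4 (0.90), the translation repressor gene Eif4ebp3 (1.03) and Igfbp1 (1.24). Apoa4 had 3.89 and 3.84 in the mother and 0.65 and 0.64 in the fetus. Nearest to Acot2 were Enc1 (0.10), Bmper (0.32), Ly6d (0.33) and Tmed5 (0.46). Enc1 had 2.39 and 2.34 in the mother and 0.21 and 0.30 in the fetus.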

How the data were processed

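Pooled liver RNA was read on 4 arrays of the same slide, in Cy3 and Cy5. For each dye the scanner files hold a spot intensity and a local background intensity, per the file headers. Further columns give processed signals, corrected for background and dye by the software, and their log10 ratio (red to green), per the file headers. That software was Agilent Feature Extraction, version 9.5.1.1 in the headers but 9.5.3.1 in the submitters' processing notes. The deposited series table holds, unlogged and rounded, the ratio of the processed red to the processed green signal. Its columns with FD in Cy5 carry a minus sign on 45017 of 45018 values, which was dropped and whose meaning stays unknown. Column medians are -0.88 and 0.88 for maternal arrays 1 and 2, and -0.92 and 0.94 for fetal arrays 1 and 2.

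In R 4.3.3 with limma 3.58.1, intensities were corrected by normexp (offset 50), normalised by loess within arrays (control spots at weight 0) and turned to FD over control, as log2 ratios computed from the deposited intensities. Outlier spots were left out (215 to 257 gene spots per array), spots of a probe averaged, and the brightest measured probe stood for a gene. The offset shrinks the ratios of dim spots. Accessions in RefSeq (GRCm38.p6) named 22951 of 41174 gene probes, an older name 3109, and the others kept the file's name. Levels used loess and Aquantile. Scripts were tested on simulated data. The number of arrays limits the precision. Labels number the pooled samples, but the number goes with the dye. Across genes, the arrays of the maternal comparison correlated at 0.87 and those of the fetal comparison at 0.67, and 0 genes passed the call rule with array 2 unturned.

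The members and lists were chosen with earlier results of these data known. All members were named, with at most 4 called genes per list by size of change, all detected further thioesterases, Ppara, and the 4 nearest genes by distance to the 2 members that changed most in the mother. A listed gene that this rule would name is not reported here.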

Additional observations from a re-analysis of the deposited data

How the results depend on the processing

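Across the alternatives run, no member value that was called changed direction. The rises of Acot1 (3.69 to 3.91) and Acot2 (2.31 to 3.005) in the mother and their maternal minus fetal differences (2.46 to 3.05 and 2.07 to 2.45) passed the call rule under all 11 alternatives with a value each. These alternatives are not independent. Changing the filter on dim probes or averaging the probes of a gene left these values unchanged, since each of these genes has 1 probe. The scanner log ratio and the authors' table both come from the software's processed signals. In the mother, 2 members rose with median centring in place of loess and with array 1 alone, without Acot12, and 4 at a 1.5-fold limit (Acot8 added). In the fetus, 1 member was called higher, against 2 with the scanner software's log ratio or the authors' deposited table (Acot3 added), 3 at a 1.5-fold limit (Acot3 and Acot12 added), and 0 to 1 on either array alone (0 on array 1). In the difference, Acot3 was the 1 member called lower with no background correction, an offset of 16, the scanner log ratio, the authors' table and the 1.5-fold limit, where 3 were called higher (Acot8 added), and 0 to 1 were called on either array alone (1 on array 1). The cause was not tested.

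Counts over all genes that moved by over 1.5 times did so under 4 settings. The scanner log ratio called 637 higher and 805 lower in the mother, 225 and 171 in the fetus, and 478 and 702 in the difference. In the same order, the authors' table called 638 and 809, 226 and 172, and 478 and 696, and the 1.5-fold limit called 690 and 890, 318 and 164, and 587 and 925. Median centring called 45 higher and 84 lower in the mother, 68 and 22 in the fetus, and 65 and 347 in the difference. Its share of higher calls was 34.9% in the mother, 75.6% in the fetus and 15.8% in the difference, against 44.8%, 63.6% and 41.0% with loess. It shifted the median of all genes by 0.01 in the mother, 0.09 in the fetus and -0.10 in the difference. Probes close to background, such as Acot2 and Acot3 in the fetus and Acot6, limit what the arrays can show. No paired analysis was possible because the numbers shared by the groups mark the dye orientation and each condition was counted as 1 pool, so no test was made.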
